A study of Mus musculus with 31 samples.

Results

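Mouse embryonic fibroblasts (MEF) that had been kept for 3 days with DMSO, with vitamin C (labelled Vc) or with a compound labelled DKG, and without virus, were compared with MEF that received no compound. These are 5 of the 31 libraries of a series on reprogramming with vitamin C and the enzyme Tet1, and they were chosen by their treatment labels. The kept arm holds 3 libraries, 1 for each of DMSO, Vc and DKG, all of day 3. The untreated arm holds 2 libraries of day 0, numbered 0824 and 0826. All 5 are labelled as fibroblasts of the strain 129/OG2 at passage 2; OG2 mice carry a green fluorescent reporter under Oct4 (Pou5f1) control sequences. No dose is given, the abbreviation DKG is not spelled out, and the title of that library names another compound (2DG), so what the cells received there is uncertain. DMSO is taken here as the vehicle. The kept libraries carry no number, so time in culture, the medium and compound, and the making of the libraries cannot be told apart. Nothing in the labels says whether the libraries came from separate embryos or cultures, so the p-values rest on the variation among these 5 libraries alone, and that variation may be technical.

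MEF are primary connective tissue cells that secrete collagens and other matrix proteins. In culture they respond to growth factors in serum and to stress through transcription programmes that can be read in RNA: the SREBP factors drive sterol and fatty acid synthesis, p53 drives arrest genes such as Cdkn1a, and Atf4, the effector of the integrated stress response, drives amino acid transport and serine synthesis. Vitamin C is a reducing cofactor of enzymes that use iron and 2-oxoglutarate, among them collagen prolyl hydroxylases, the Tet enzymes that oxidise 5-methylcytosine, JmjC histone demethylases and the prolyl hydroxylases that mark HIF1a for degradation. Interferon-stimulated genes carry a shared promoter element read by Irf factors.

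Total expected counts of the 5 libraries lay between 4175233 and 6092772. Levels are given as CPM, read counts relative to library size after scaling by trimmed mean of M-values (TMM), and they compare a gene across libraries, not genes with each other. The DMSO and DKG libraries were the most alike pair, with a chi-square of 2.28 per gene, against 9.45 between the untreated libraries and 14.3 between DMSO and Vc. All 12 fibroblast markers passed the filter on low counts. Thy1, a surface antigen of fibroblasts, stood at 785 and 507 CPM in untreated MEF 0824 and 0826, and at 763, 775 and 784 with DMSO, Vc and DKG. None of 9 erythroid markers passed the filter, and 9 embryonic stem cell markers summed to between 0.718 and 18.9 CPM. The highest of these sums belonged to the Vc library, where Pou5f1 was at 10.9 CPM against 0.165 with DMSO, 0 with DKG and 2.00 and 3.72 in untreated MEF.

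Kept against untreated, 20 of 12636 genes tested were called by edgeR's quasi-likelihood test at a Benjamini-Hochberg adjusted p under 0.05 (0.158% of the genes tested). Of these, 7 rose (0.0554%) and 13 fell (0.103%). Among those that rose were the Wnt pathway receptor Lgr5, the retinoic acid binding protein Crabp1, the ligand Wnt4 and the GDNF receptor Gfra1, each past 2-fold. Among those that fell were the secreted antagonists Grem1 and Fst, the neurotrophin Bdnf, the protease Plau and the p53 target Perp. Without adjustment, 1482 genes (11.7%) had a p under 0.05.

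Lgr5 (chromosome 10, 115450311 to 115587780 in mm10), a receptor for R-spondins that strengthens Wnt signals, was at 19.5 and 13.9 CPM in untreated MEF 0824 and 0826, and at 54.7, 58.8 and 51.7 CPM with DMSO, Vc and DKG. The 3 kept values lay close together and well above both untreated ones, a log2 difference of 1.73 ± 0.18 (SE; adjusted p = 0.0467, edgeR's quasi-likelihood test). Wnt4 (chromosome 4, 137277489 to 137299726) was at 10.9 and 9.82 CPM untreated and at 26.4, 24.98 and 25.4 kept, 1.30 ± 0.17 on the log2 scale. Gfra1 (chromosome 19, 58235604 to 58455909) was at 53.1 and 50.8 CPM untreated and at 127, 120 and 136 kept, 1.30 ± 0.12. In both genes the spread within each arm was small beside the gap between the arms. Crabp1, which binds retinoic acid in the cytoplasm, was at 266 and 222 CPM untreated and at 571, 848 and 659 kept, so that Vc gave the highest value and DMSO the lowest of the kept libraries (1.51 ± 0.19). Ptx3, a secreted pattern recognition protein, went from 17.1 and 18.8 to 50.3, 42.5 and 51.7 CPM (1.42 ± 0.16). The adhesion protein Cdh3 (P-cadherin; 0.97 ± 0.11) and the membrane protein Lrrc15 (0.85 ± 0.11), a marker of matrix-producing fibroblasts, completed the group. The adjusted p of these 7 genes lay between 0.0467 and 0.0494 in edgeR's quasi-likelihood test.

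Perp (chromosome 10, 18845020 to 18857073), a p53-induced membrane protein that is also a component of desmosomes, was at 31.3 and 34.9 CPM in untreated MEF and at 6.43, 9.54 and 5.51 with DMSO, Vc and DKG. It fell by 2.21 ± 0.24 on the log2 scale, and the highest kept value, that of Vc, was far below the lowest untreated one. Sim2, a developmental transcription factor, fell from 49.8 and 63.5 CPM to 21.6, 23.2 and 26.3 (-1.26 ± 0.16). In both genes every kept library lay below both untreated ones.

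The secreted signalling proteins that fell act on neighbouring cells. Grem1 (chromosome 2, 113746164 to 113758646), an antagonist of BMP ligands, was at 804 and 676 CPM untreated and at 362, 420 and 362 kept (-0.96 ± 0.12). Fst (follistatin; chromosome 13, 114452290 to 114458951), which binds activin, was at 238 and 217 CPM untreated and at 106, 109 and 100 kept (-1.12 ± 0.11). Bdnf was at 67.5 and 64.2 CPM untreated and at 29.4, 23.4 and 27.1 kept (-1.30 ± 0.14). In each of these genes the kept values lay close together and below both untreated ones. Plau, the urokinase that activates plasminogen, fell from 170 and 172 CPM to 90.9, 96.7 and 94.3 (-0.86 ± 0.10), and Cpe, which trims prohormones, fell from 815 and 673 to 361, 337 and 341 (-1.10 ± 0.11). A further 5 genes that fell encode proteins of the membrane and cytoskeleton: Sorbs2 (-1.44 ± 0.18), the LIM protein Crip2 (-1.09 ± 0.13), the caveolar coat protein Cavin2 (-1.06 ± 0.13), the membrane repair protein Dysf (-0.89 ± 0.11) and the surface antigen Cd24a (-0.87 ± 0.11). The adjusted p of the 13 genes that fell lay between 0.0467 and 0.0494 in edgeR's quasi-likelihood test.

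The Wnt list as a whole was split. Of its 18 tested members 7 were above both untreated libraries in all 3 kept ones and 4 below, beside 15.3% and 14% of all genes tested, and 2 (Lgr5 and Wnt4) were called. The secreted Wnt antagonist Sfrp1 was at 82.2 and 83.6 CPM untreated and at 196, 310.2 and 186 with DMSO, Vc and DKG (1.47 ± 0.23, adjusted p = 0.104 by edgeR's quasi-likelihood test with Benjamini-Hochberg adjustment). Sfrp2 was at 5.46 and 9.65 CPM untreated and at 30.3, 64.7 and 34.2 kept. Both antagonists stood above the untreated level in every kept library and highest with Vc. Axin2, a feedback inhibitor used as a readout of Wnt signalling, was at 2.73 and 2.54 CPM untreated and at 4.45, 4.09 and 3.11 kept (0.57 ± 0.35), and Lef1, a nuclear partner of beta-catenin, overlapped between the arms. Ccnd1 (cyclin D1), which drives entry into S phase, was at 436 and 389 CPM untreated and at 182, 245 and 198 kept (-0.99 ± 0.15, adjusted p = 0.0881 by the same test), and Wnt5a, Rspo3 and Tcf7 were the other members below. Among genes of other lists that stood apart, Igfbp5, which binds insulin-like growth factors, was at 397 and 552 CPM untreated and at 1146, 901 and 1059 kept. Lpl, the lipoprotein lipase, was at 26.6 and 20.3 CPM untreated and at 59.0, 106 and 66.8 kept. Neither of these overlapped between the arms, and neither was called.

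**Figure D1:**
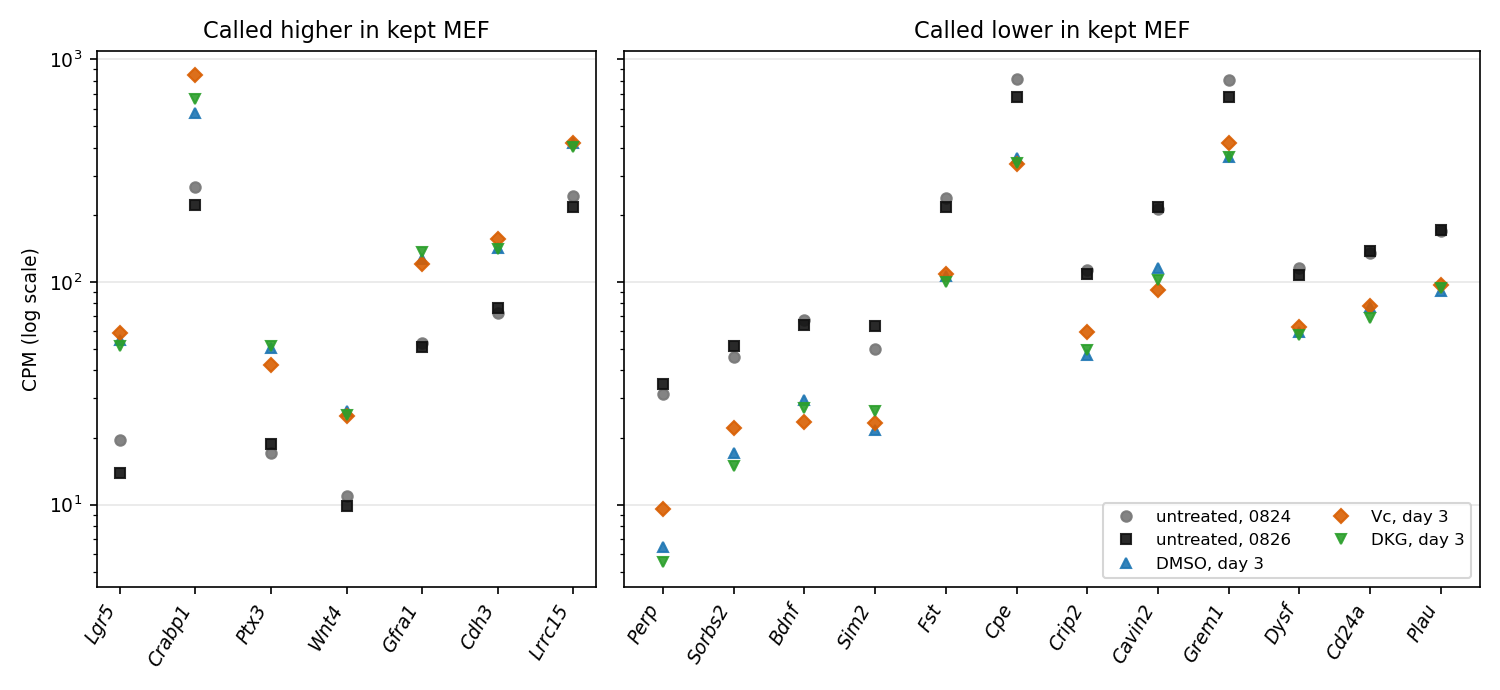
CPM (log scale) of the genes called between kept and untreated MEF with a mean of at least 20 CPM in the higher arm, 1 point per library, with 7 that rose on the left and 12 that fell on the right. In every gene the 3 kept libraries (DMSO, Vc, DKG) lie on one side of both untreated libraries.

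All 20 genes went the same way in each of the 14 alternative settings. Since their arms did not overlap, their direction could hardly change there. Whether they passed the test depended on single libraries. Without the DMSO library, or without the DKG library, no gene was called, with 1265 and 995 genes at an unadjusted p under 0.05. Without the Vc library the kept arm held DMSO and DKG, which are different treatments and the most alike pair of the 5 libraries. In that setting 187 genes were called by edgeR's quasi-likelihood test, 80 higher and 107 lower, and all 20 genes were among them. Among those called only then were the Wnt antagonists Sfrp1 and Sfrp2, the collagen chains Col6a2, Col6a3, Col12a1, Col5a3 and Col27a1, the receptor Pdgfra and Igfbp5 as higher, and the p53 targets Cdkn1a, Mdm2, Ccng1 and Pmaip1 and the cyclin Ccnd1 as lower. Leaving out untreated 0826 gave 6 higher and 112 lower, and leaving out untreated 0824 gave 1 higher and 2 lower, none of which was among the 20.

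Because few genes passed, gene lists are described by the number of their tested members for which all 3 kept values lay above, or all 3 below, both untreated values. Over all genes tested this held for 15.3% above and 14% below, and the median log2 difference was 0.02. The list of cholesterol synthesis and SREBP2 targets stood farthest above that background, with 23 of 25 members above and none below, followed by the fibroblast markers (8 of 12 above, 1 below) and fatty acid synthesis (11 of 19 above, none below). At the other end lay the macrophage and blood markers (17 of 17 below), the X and Y markers of embryo sex (4 of 5 below, 1 above), TGF-beta and YAP targets (10 of 18 below, 1 above) and p53 targets (13 of 25 below, none above).

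**Figure D2:**
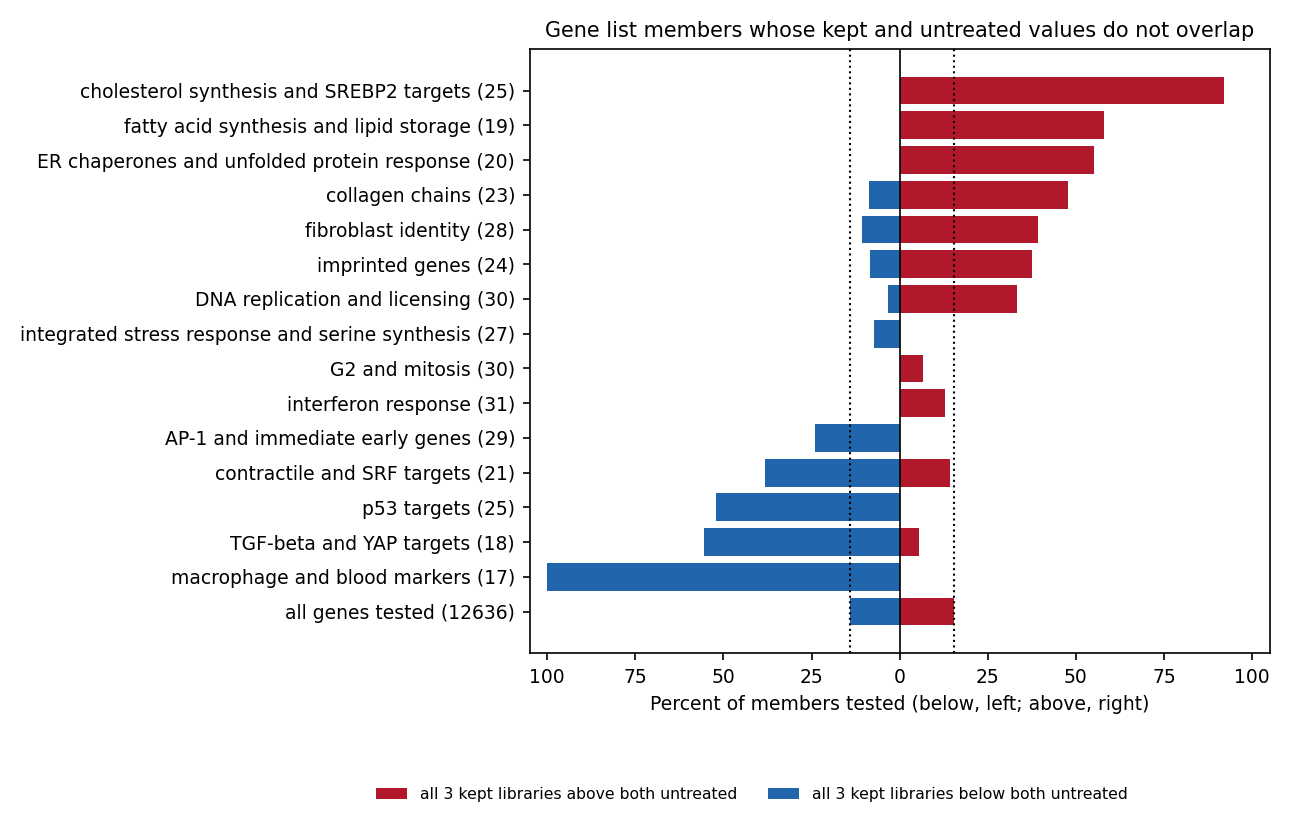
Percent of the tested members of selected gene lists (number in parentheses) with all 3 kept libraries above both untreated libraries (red, right) or below both (blue, left); dotted lines mark the percent over all genes tested. Of the lists shown, the cholesterol list extends farthest to the right and the macrophage list farthest to the left, beside 15.3% and 14% for all genes.

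No single cholesterol gene was called, while 92% of the list (23 of 25) lay above both untreated libraries. The median log2 difference over the 25 genes was 0.72, and between 0.46 and 0.97 over the alternative settings. Hmgcs1, which opens the pathway to mevalonate, was at 202 and 291 CPM untreated and at 414, 407 and 376 with DMSO, Vc and DKG (0.69 ± 0.16, adjusted p = 0.177 by edgeR's quasi-likelihood test with Benjamini-Hochberg adjustment). Idi1, which isomerises isopentenyl diphosphate, was at 104 and 135 CPM untreated and at 228, 191 and 214 kept. The arms did not overlap in these genes. The 2 members with overlapping arms were Msmo1 and Hsd17b7. The untreated libraries themselves differed in this list: all 25 genes were higher in 0826 than in 0824, with a median log2 ratio of 0.52 over the 24 genes at 20 CPM or more, so the libraries ran from 0824 through 0826 to the kept ones.

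Fatty acid synthesis genes followed the same order. The desaturase Scd1 was at 226 and 314 CPM untreated and at 464, 710 and 462 kept, and Fads2, which desaturates polyunsaturated fatty acids, was at 59.8 and 94.1 untreated and at 139, 211 and 151 kept. Both were highest with Vc and had no overlap between arms. Fasn, Acaca, Acly, Scd2, Elovl5, Elovl6, Fads1, Srebf1 and Acsl3 made up the rest of the 11, and the median over the list was 0.41. Genes of triglyceride storage in the same list overlapped between the arms: Plin2, a lipid droplet coat protein, was at 132 and 107 CPM untreated and at 81.8, 112 and 91.7 kept, and Dgat1 was at 22.4 and 15.9 against 17.6, 17.5 and 15.6. Of 20 chaperones and sensors of the endoplasmic reticulum, 11 were above and none below, by small amounts (median 0.21), and 17 were above without the Vc library, beside 26.9% of all genes. The chaperone Hspa5 was at 1128 and 1129 CPM untreated and at 1574, 1380 and 1473 kept.

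Collagen chains and fibroblast genes were on balance higher in the kept cells, and no member of either list was called. All 3 main chains of collagen VI, which forms the filaments around cells, were above both untreated libraries. Col6a3 was at 338 and 456 CPM untreated and at 831, 858 and 731 kept (1.02 ± 0.15, adjusted p = 0.0925 by edgeR's quasi-likelihood test with Benjamini-Hochberg adjustment). Col1a1, a chain of the fibrillar collagen I, was at 11695 and 12339 CPM untreated and at 14090, 18563 and 13895 kept (0.37 ± 0.14, adjusted p = 0.361 by the same test). In Col6a3 the arms stood well apart, while in Col1a1 DMSO and DKG were only a little above untreated 0826 and Vc stood higher. In all 11 of 23 collagen chains were above (median 0.26), and Col8a1, at 556 and 494 CPM untreated and 371, 339 and 329 kept, and Col4a6 were below.

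Other matrix genes split. Postn (periostin) was at 1154 and 1120 CPM untreated and at 1794, 1815 and 1594 kept, and the thrombospondin Thbs2 was at 880 and 831 against 1203, 1510 and 1182. Both had non-overlapping arms, with the kept cells higher. Fibronectin (Fn1) was at 19462 and 14801 CPM untreated and at 12755, 9912 and 11842 kept, osteopontin (Spp1) at 967 and 663 against 458, 379 and 422, and Thbs1 at 14480 and 11495 against 10203, 8763 and 9864. In these 3 genes the kept cells were lower and untreated 0824 was the highest of all. Of 28 fibroblast identity genes, 11 were above and 3 below. Pdgfra, a receptor for platelet-derived growth factor, was at 148 and 160 CPM untreated and at 287, 429 and 272 kept. The intermediate filament gene Vim was at 4022 and 4297 CPM untreated and at 3340, 3439 and 3625 kept, one of the 3 below.

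Several p53 targets and their regulators were lower in the kept cells. Besides Perp, which fell, Cdkn1a, the inhibitor of cyclin-dependent kinases known as p21, was at 434 and 404 CPM untreated and at 243, 292 and 255 with DMSO, Vc and DKG (-0.67 ± 0.12, adjusted p = 0.123 by edgeR's quasi-likelihood test with Benjamini-Hochberg adjustment). Mdm2, the ubiquitin ligase of p53, was at 264 and 220 CPM untreated and at 151, 128 and 158 kept. Pmaip1 (Noxa), a promoter of cell death, was at 43.8 and 37.2 CPM untreated and at 17.3, 4.995 and 11.5 kept, lowest with Vc. None of these overlapped between arms. Ccng1, Btg2, Plk2, Zmat3, Tnfrsf10b, Sesn2, Aen, Ei24 and Polk were the other members below, and Bax, Phlda3 and Gdf15 overlapped. The median over the 25 genes was -0.32, and between -0.38 and -0.24 over the alternative settings.

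Genes of cell division lay higher with DMSO and DKG than in untreated cells, and near the untreated level with Vc. Mki67, a nuclear protein of cycling cells, was at 176 and 198 CPM in untreated MEF, at 284 and 261 with DMSO and DKG and at 182 with Vc. Top2a, a topoisomerase of replication and mitosis, was at 157 and 204 CPM untreated, at 245 and 237 with DMSO and DKG and at 154 with Vc. The Vc library alone made the arms overlap in both. Of 30 genes of G2 and mitosis, 2 were above both untreated libraries in all 3 kept ones, while 26 were without the Vc library, where the background over all genes was 26.9%, and 23 without untreated 0826 (background 29.1%). For DNA replication and licensing, 10 of 30 were above, with 22 when Vc and 20 when untreated 0826 was left out; the licensing gene Mcm2 was at 49.3 and 62.5 CPM untreated and at 81.9, 69.7 and 72.0 kept. The untreated pair differed here as well, since 29 of the 30 mitosis genes were higher in 0826 than in 0824.

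Targets of TGF-beta, YAP and serum response factor were among those lower in the kept cells. Ccn2 (connective tissue growth factor) was at 2033 and 1571 CPM untreated and at 1315, 769 and 1339 kept, and the ligand Tgfb2 was at 70.4 and 70.8 against 46.7, 35.0 and 38.8. Crim1, a membrane protein that binds BMP ligands, was at 274 and 242 CPM untreated and at 160, 139 and 155 kept (-0.77 ± 0.12, adjusted p = 0.0971 by edgeR's quasi-likelihood test with Benjamini-Hochberg adjustment). The arms did not overlap in these genes, and Vc gave the lowest value in each. Of the 18 genes of TGF-beta and YAP, 15 were below when untreated 0826 was left out, beside 27.5% of all genes. Tgfbi, a secreted matrix protein, went the other way, at 132 and 148 CPM untreated and 206, 344 and 216 kept. Of 21 contractile genes 8 were below and 3 above, with Cnn1 (calponin) at 190 and 192 CPM untreated and 140, 93.3 and 132 kept. Of 29 AP-1 and immediate early genes 7 were below and none above, but all 29 were higher in untreated 0824 than in 0826, and without 0826 the count below was 21. The share of all genes below was then 27.5%. With 0824 left out, 8 were above and 7 below, close to the 26.5% and 24% of all genes, and with DKG left out 12 were below, beside 17.1%.

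Markers of macrophages and blood cells were lower in the kept cells; in bulk RNA, fewer cells of a type and less RNA per cell cannot be told apart. All 17 tested macrophage and blood markers were below both untreated libraries, in every setting examined. Lyz2 (lysozyme of macrophages) was at 1310 and 264 CPM in untreated 0824 and 0826 and at 148, 182 and 147 with DMSO, Vc and DKG (-2.31 ± 0.54, adjusted p = 0.177 by edgeR's quasi-likelihood test with Benjamini-Hochberg adjustment). Csf1r, the receptor for macrophage colony-stimulating factor, was at 196 and 44.0 CPM untreated and at 26.1, 20.7 and 22.3 kept. In both genes the gap between the untreated libraries was larger than that between 0826 and the kept ones. The 19 listed markers summed to 2943 and 639 CPM untreated and to 375, 396 and 348 kept. Between the untreated libraries, 27 of 28 lysosomal genes were likewise higher in 0824 than in 0826, but between the arms 4 of 28 were below both untreated libraries (14.3%, beside 14% of all genes). That count was 21 without the Vc library (75%, beside 23%) and 20 without untreated 0826 (71.4%, beside 27.5%). The cathepsin Ctsd was at 1920 and 1189 CPM untreated and at 839, 1331 and 875 kept. The part of macrophage RNA in the genes lower in kept cells was not tested. Between the untreated libraries, the called genes Fst, Bdnf, Crip2, Plau, Cavin2 and Cd24a had log2 ratios of 0826 over 0824 from -0.13 to 0.04, while all 17 macrophage markers were past 2-fold lower in 0826.

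Genes that mark the sex of the embryos also differed between the arms, and their part in the other values was not tested. Xist, transcribed from the inactive X chromosome, was at 332 and 297 CPM untreated and at 663, 351 and 511 kept. Eif2s3y, on the Y chromosome, was at 38.7 and 36.1 CPM untreated and at 26.2, 22.7 and 21.3 kept, and Ddx3y, Kdm5d and Uty were below in the same way. Xist was highest with DMSO and the Y-linked genes were lower in all 3 kept libraries, and none of the 5 was called. Imprinted genes were on balance higher (9 of 24 above, 2 below, median 0.33; 15 above without untreated 0826, beside 29.1% of all genes). H19, a growth-restraining non-coding RNA, was at 3089 and 6181 CPM untreated and at 7007, 10338 and 7076 kept, and Peg3 was at 290 and 357 against 553, 611 and 478. H19 again ran from 0824 through 0826 to the kept libraries, while Peg3 stood apart from both.

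The compounds were set beside DMSO within the kept cells by single libraries, so these are values without a test. A gene was counted when the ratio of (CPM + 1) passed 2-fold and the higher library had at least 20 CPM. With Vc, 126 of 7845 genes were higher than with DMSO (1.61%) and 115 lower (1.47%). With DKG, 3 of 7651 genes were higher (0.0392%) and 6 lower (0.0784%). The untreated libraries 0826 and 0824, which share their label, differed in 13 genes higher (0.167%) and 128 lower (1.65%) of 7765. On the lower side that pair thus differed by about as many genes as Vc and DMSO, and on the higher side by far fewer. The standard deviation of the log2 ratios was 0.44 for Vc over DMSO, 0.19 for DKG over DMSO and 0.37 for the untreated pair.

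The Vc library also differed in a way that followed base composition. With the genes divided into 5 equal groups from the lowest to the highest GC content of their transcripts, the median log2 ratio of Vc over DMSO was -0.35, -0.11, 0.01, 0.12 and 0.23. For DKG over DMSO the medians ran from -0.08 to 0.09, and for the untreated pair from 0.04 to -0.14. After the median of genes of like GC content was subtracted, 115 genes were higher with Vc and 80 lower, and list values below are followed by the value after that step, called GC-adjusted, which was chosen after seeing the data.

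**Figure D3:**
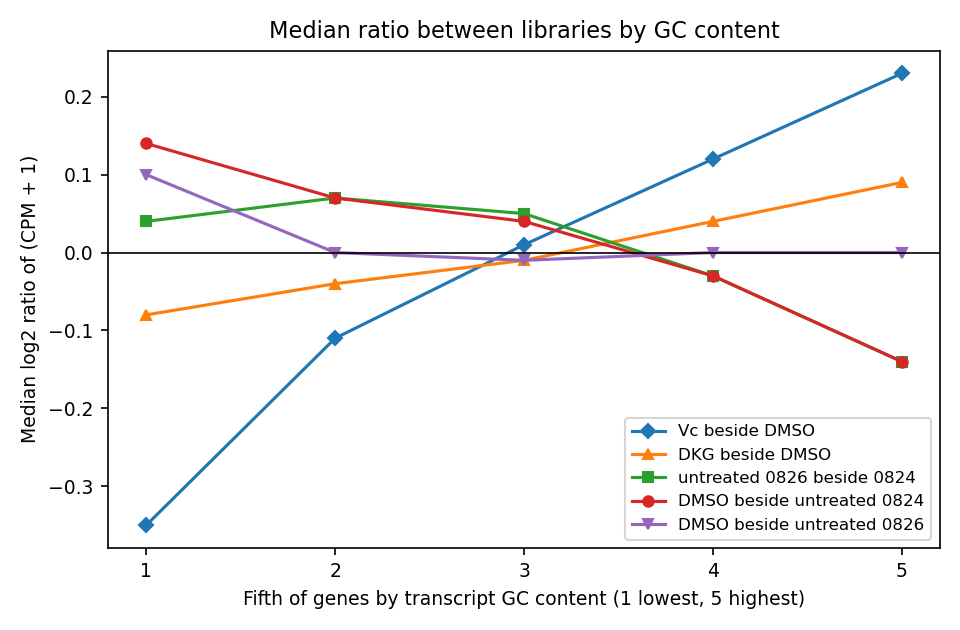
Median log2 ratio of (CPM + 1) between pairs of single MEF libraries in 5 equal groups of genes by transcript GC content. Vc over DMSO climbs from -0.35 in the lowest group to 0.23 in the highest, and DKG over DMSO from -0.08 to 0.09.

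With Vc, the genes of the integrated stress response and serine synthesis were lower than with DMSO almost throughout. Of 24 members at the level, 23 were lower, 15 of them past 2-fold, and the median log2 ratio was -1.15 (-1.24 with the GC trend taken out, when all 24 were lower). Over all 7845 genes at the level the median was -0.01. With DKG the same list had a median of 0.02 (GC-adjusted -0.01) and no member past 2-fold. Trib3 (chromosome 2, 152337422 to 152344032), a pseudokinase induced by Atf4, was at 31.1 and 38.1 CPM in untreated 0824 and 0826, at 63.8 with DMSO, at 5.22 with Vc and at 58.6 with DKG. The Vc value rests on 23 counts and has a 95% Poisson interval of 3.31 to 7.84 CPM, which covers counting error only. It lay below every other MEF library, and the DMSO and DKG values lay above the untreated ones.

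The same order held along the pathway. Atf4 itself was at 240 and 293 CPM untreated and at 362, 193 and 354 with DMSO, Vc and DKG. Its partner Ddit3 (Chop) was at 61.8 and 69.2 CPM untreated and at 76.8, 31.3 and 85.2 kept. Chac1, which degrades glutathione, was at 24.0 and 27.8 CPM untreated and at 37.1, 4.09 and 30.2 kept. In all 3 the Vc library was the lowest of the 5. Of the transporters, Slc7a5, which brings in large neutral amino acids, was at 137 and 193 CPM untreated and at 257, 69.7 and 255 kept, and Slc7a11, which exchanges cystine for glutamate, was at 11.1 and 12.4 against 23.7, 4.995 and 18.7. Of the biosynthetic enzymes, asparagine synthetase (Asns) was at 102 and 141 CPM untreated and at 165, 55.6 and 169 kept, and Mthfd2, a mitochondrial folate enzyme, was at 74.6 and 99.2 against 120, 30.7 and 131. The lower level with Vc thus spanned transport, folate and serine steps (Phgdh, Psat1 and Psph included). Cebpb was the one member higher with Vc than with DMSO, at 86.5 against 71.7 CPM. The glycine transporter Slc6a9, which is not on the list, was at 35.3 CPM with DMSO and 6.13 with Vc. The 8 named genes with the lowest ratios were Trib3, Chac1, Slc7a11 and Mthfd2 of the list, Slc6a9, Zfp994, the RNA-binding protein Hnrnpa3 (508 CPM with DMSO, 133 with Vc) and Tom1, whose counts are uncertain. Between kept and untreated MEF none of its 27 tested members was above both untreated libraries in all 3 kept ones. Without the Vc library 19 of them were (70.4%, beside 26.9% of all genes), and Trib3 was called higher by edgeR's quasi-likelihood test.

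Interferon response genes were higher with Vc than with DMSO in all 21 members at the level, 9 of them past 2-fold (median 0.85, and 0.81 with the GC trend taken out). With DKG the median over 12 members was -0.03 (GC-adjusted 0.01). Ifit1, an antiviral protein that binds viral RNA ends, was at 16.4 and 4.91 CPM in untreated 0824 and 0826, at 19.1 with DMSO, at 75.2 with Vc and at 16.0 with DKG. Isg15, a ubiquitin-like modifier, was at 16.4 and 4.40 CPM untreated and at 10.2, 36.3 and 10.53 kept. In both the Vc library was the highest of the 5, and untreated 0826 the lowest. The untreated pair differed in this list too: 30 of 31 tested members were lower in 0826 than in 0824. That library decides the list's position between the arms, since 4 of 31 members were above both untreated libraries (12.9%, beside 15.3% of all genes) and 24 when 0824 was left out (77.4%, beside 26.5%).

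**Figure D4:**
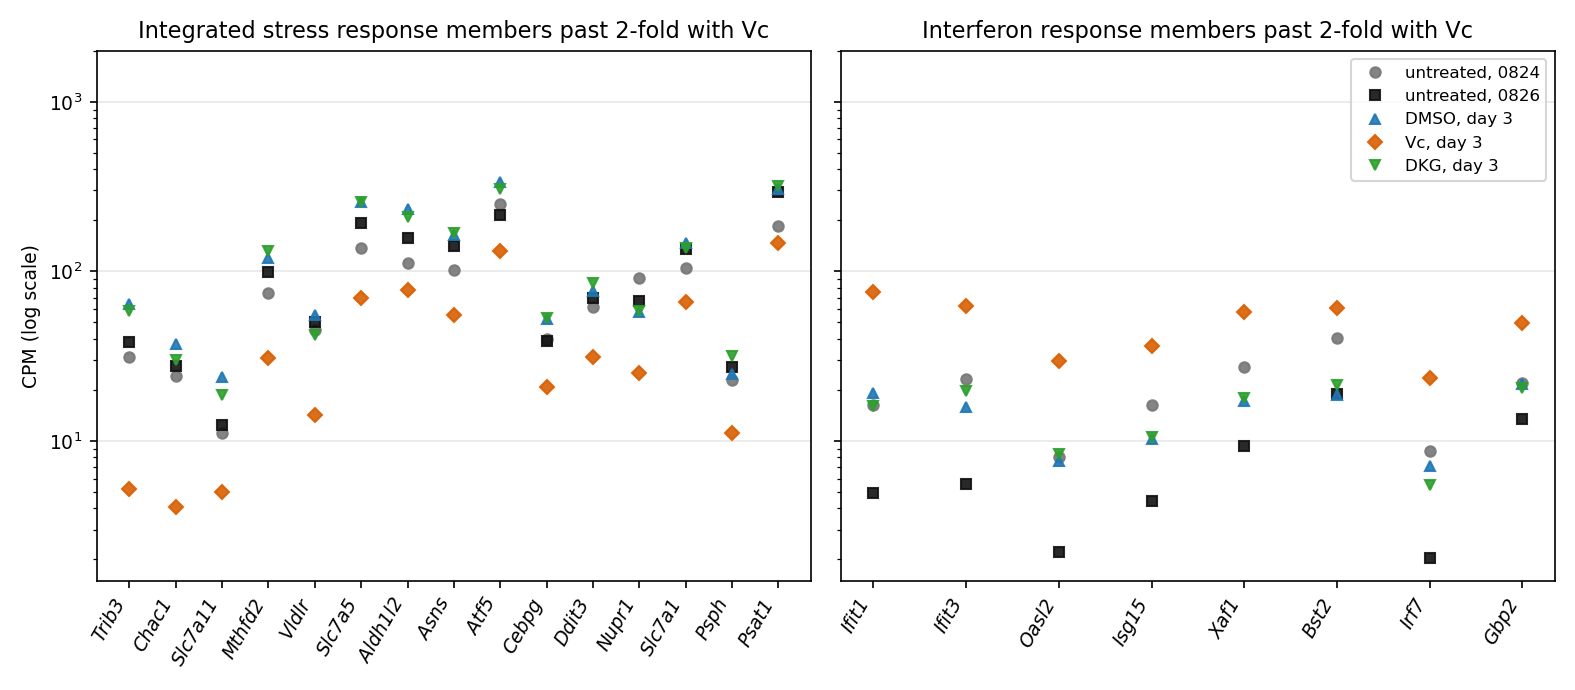
CPM (log scale) in the 5 MEF libraries of the 15 integrated stress response genes past 2-fold lower and the 8 interferon response genes with the highest ratios of Vc over DMSO. The Vc points (orange diamonds) lie lowest in each stress response gene and highest in each interferon gene.

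Interferon genes share the interferon-stimulated response element, shown here in the promoters of 4 members past 2-fold higher with Vc. The lists searched for motifs were chosen after their values were seen. In RefSeq promoters of the build GRCm38.p6 (250 bases before to 50 after the start, both strands), the element, searched as TTTC, any 2 bases and TTTC, was found in 15 of 26 interferon list members with a promoter entry (57.7%) and in 3.49% of all 27025 promoters. The stretches below run 5′ to 3′ on the strand of the gene, with matches in capitals; in Isg15 the matches overlap and lie on the opposite strand, so they read there as GAAA blocks.
Ifit1, chr19:34640755-34640843, plus strand: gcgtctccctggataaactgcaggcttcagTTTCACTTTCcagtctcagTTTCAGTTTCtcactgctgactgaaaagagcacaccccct
Ifit3, chr19:34583343-34583446, plus strand: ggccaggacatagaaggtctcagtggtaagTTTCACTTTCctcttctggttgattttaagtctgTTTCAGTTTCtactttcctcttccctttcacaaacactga
Isg15, chr4:156200845-156200926, minus strand: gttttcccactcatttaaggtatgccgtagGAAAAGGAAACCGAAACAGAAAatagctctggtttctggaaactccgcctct
Gbp2, chr3:142620574-142620643, plus strand: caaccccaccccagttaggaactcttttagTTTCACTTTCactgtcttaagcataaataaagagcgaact
Ifit1 and Ifit3 hold the same pair of matches, TTTCACTTTC followed by TTTCAGTTTC, at different spacing. Ifit3 was at 23.3 and 5.59 CPM untreated and at 15.8, 62.2 and 19.6 kept, and Gbp2, a guanylate-binding protein, at 22.0 and 13.5 against 21.6, 49.7 and 20.6, both highest with Vc like Ifit1. Among the other motifs searched, the Atf4 element TGATGNAAT was in 2 of 23 stress response promoters (8.7%, against 0.969% of all), and the SREBP element TCACNCCAC was in 1 of 17 cholesterol promoters, that of Hmgcs1 (5.88%, against 1.22%). The AP-1 element TGANTCA was in 0 of 22 immediate early promoters and in 3 of 14 matrix protease promoters (21.4%), against 7.93% of all. The hypoxia element ACGTG was in 13 of 21 hypoxia promoters (61.9%, against 19.7%). The antioxidant element TGACNNNGC was in 9 of 29 Nrf2 target promoters (31%, against 12.5%). A match is a description of the letters in this window only.

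G2 and mitosis genes were all lower with Vc than with DMSO, by less than 2-fold except in 1 gene. The median over 29 members was -0.45, and with the GC trend taken out it was -0.38 with 28 lower; this list is of low GC content (median 46.6%). Bub1, a kinase of the spindle checkpoint, was at 26.4 and 28.3 CPM untreated and at 45.2, 21.1 and 42.6 with DMSO, Vc and DKG, and was the gene past 2-fold. Cdk1, the kinase that starts mitosis, was at 52.4 and 68.7 CPM untreated and at 81.3, 60.9 and 86.4 kept. In both the Vc value was near the untreated ones. The cell cycle homology region TTTGAA was found in 18 of 25 promoters of the list (72%), against 18.1% of all promoters. Top2a, Ccnb2 and Anln were among those with 2 matches in the window, as were Cdk1 and Mki67. The element is shown in capitals in 2 of these promoters, each with 2 matches before the start.
Cdk1, chr10:69352913-69353013, minus strand: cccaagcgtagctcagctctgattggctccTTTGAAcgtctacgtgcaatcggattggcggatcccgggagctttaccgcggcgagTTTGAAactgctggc
Mki67, chr7:135716442-135716525, minus strand: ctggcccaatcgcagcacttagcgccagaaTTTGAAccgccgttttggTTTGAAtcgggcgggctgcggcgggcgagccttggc
Mki67 was at 284 CPM with DMSO, 182 with Vc and 261 with DKG. Of 26 replication genes, 23 were lower with Vc (median -0.26, GC-adjusted -0.25), where E2F sequences (TTTCGCGC, TTTGGCGC, TTTCCCGC or TTTGCCGC) were in 9 of 24 promoters (37.5%, against 2.32%). Of 27 genes of ribosome biogenesis and nucleotide synthesis, 26 were lower (median -0.26, GC-adjusted -0.24). Between the untreated libraries, 0826 was higher than 0824 in 27 of 28 mitosis, 15 of 18 replication and 27 of 27 ribosome genes. Over these genes, at 20 CPM or more, the medians were 0.37, 0.23 and 0.30 (GC-adjusted 0.32, 0.22 and 0.28).

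Sterol genes were higher with Vc than with DMSO in 23 of 25 members (median 0.55, and 0.50 with all 25 higher once the GC trend was taken out), so the Vc library lay farthest from the untreated ones on that list. Of them 3 were past 2-fold. Mvd, which makes isopentenyl diphosphate, was at 35.8 and 40.6 CPM untreated and at 47.5, 100.1 and 56.3 kept. With DKG the median of the list was 0.01 (GC-adjusted 0.02). Lysosomal genes were higher with Vc in 26 of 27 (median 0.41, GC-adjusted 0.32), with Gpnmb, a glycoprotein of lysosomes and macrophages, at 187 and 64.2 CPM untreated and at 47.3, 169 and 67.7 kept. The 19 macrophage markers summed to 375 CPM with DMSO and 396 with Vc, with Csf1r lower and Lyz2 higher with Vc. Nrf2 targets and redox enzymes were higher in 24 of 29 (median 0.32, GC-adjusted 0.24); the secreted peroxidase Gpx3 was at 67.1 and 48.6 CPM untreated and at 47.8, 134 and 40.0 kept, and Slc7a11, which is also a stress response gene, went the other way.

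The named genes with the highest ratios of Vc over DMSO were Aldh1l1, Xdh, Aqp1, Sncg, Ly6c1, Agtr2, Mdk and Serping1. Aldh1l1 (chromosome 6, 90486427 to 90600203), a folate dehydrogenase of the cytosol, was at 6.36 and 5.76 CPM untreated and at 4.12, 40.4 and 7.66 with DMSO, Vc and DKG, a log2 ratio of 3.02. Its mitochondrial counterpart Aldh1l2, on the stress response list, went the other way, at 233, 77.9 and 211 CPM. Xdh, which makes uric acid, was at 11.8 and 4.06 CPM untreated and at 6.10, 46.3 and 7.42 kept. In both Aldh1l1 and Xdh the Vc library alone was high. Mdk (midkine), a heparin-binding growth factor, was at 11.1 and 13.9 CPM untreated and at 14.5, 69.3 and 22.7 kept. The complement inhibitor Serping1 was at 20.9 and 19.5 CPM untreated and at 24.2, 104.7 and 28.5 kept. Of the 126 genes, 83 were also past 2-fold of DKG, and 118 lay above both untreated libraries.

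Several genes of the fibroblast identity list were higher with Vc. The proteoglycan Lum (lumican) was at 36.9 and 37.1 CPM untreated and at 60.01, 219 and 52.7 kept, Dpt (dermatopontin) at 14.7 and 5.42 against 12.9, 45.2 and 13.6, and the surface antigen Ly6a (Sca-1) at 64.0 and 44.7 against 39.9, 163 and 46.9. In all 3 the Vc library stood alone. Over the fibroblast identity list 21 of 26 members were higher and 6 past 2-fold, with a median of 0.35; with the GC trend taken out the median was 0.14, again with 6 past 2-fold. The matrix metalloproteinases Mmp2 and Mmp13 were higher as well: Mmp2 was at 255 CPM with DMSO and 553 with Vc, and Mmp13 at 14.2 and 43.8. On the list of matrix proteases and inhibitors, 17 of 19 members were higher (median 0.33, GC-adjusted 0.30). Past 2-fold higher were 3 members before the GC step and 1 after it. The imprinted cell cycle inhibitor Cdkn1c (p57) was at 62.6 and 90.2 CPM untreated and at 89.9, 310.2 and 114 kept. Elastin (Eln) went the other way, at 66.2 and 80.1 CPM untreated and at 88.7, 32.2 and 71.1 kept.

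Of the genes tied to enzymes that use vitamin C, the collagen chains had a median of -0.02 (GC-adjusted 0.01) over 22 members, 11 higher and 11 lower. The list of collagen modification and crosslinking had a median of 0.11 (GC-adjusted -0.02) over 21 members, 14 higher and 7 lower, none past 2-fold. P4ha1 of that list is a catalytic subunit of collagen prolyl hydroxylase and also a HIF target. It was at 244 and 255 CPM untreated and at 257, 132 and 233 kept. Hypoxia and HIF targets were lower with Vc in 14 of 15 (median -0.24, and -0.37 with 12 of 15 lower once the GC trend was taken out). Vegfa, the endothelial growth factor, was at 95.1 and 87.9 CPM untreated and at 114, 59.3 and 103 kept, and Ero1l, an oxidase of the endoplasmic reticulum, at 110 and 109 against 117, 52.0 and 109. In these 3 genes the Vc value was the lowest of the 5, and the untreated, DMSO and DKG values lay close together. Tet1 was at 6.73 and 6.43 CPM untreated and at 8.90, 9.99 and 6.70 kept, Tet2 at 19.1 and 25.1 against 23.1, 15.2 and 15.8, and Tet3 at 55.6 and 62.5 against 64.3, 38.8 and 54.8. The kept and untreated values overlapped in all 3 Tet genes. JmjC demethylases were lower with Vc in 15 of 18 (median -0.18, GC-adjusted -0.16) and with DKG in 15 of 18 (median -0.08, GC-adjusted -0.09).

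**Figure D5:**
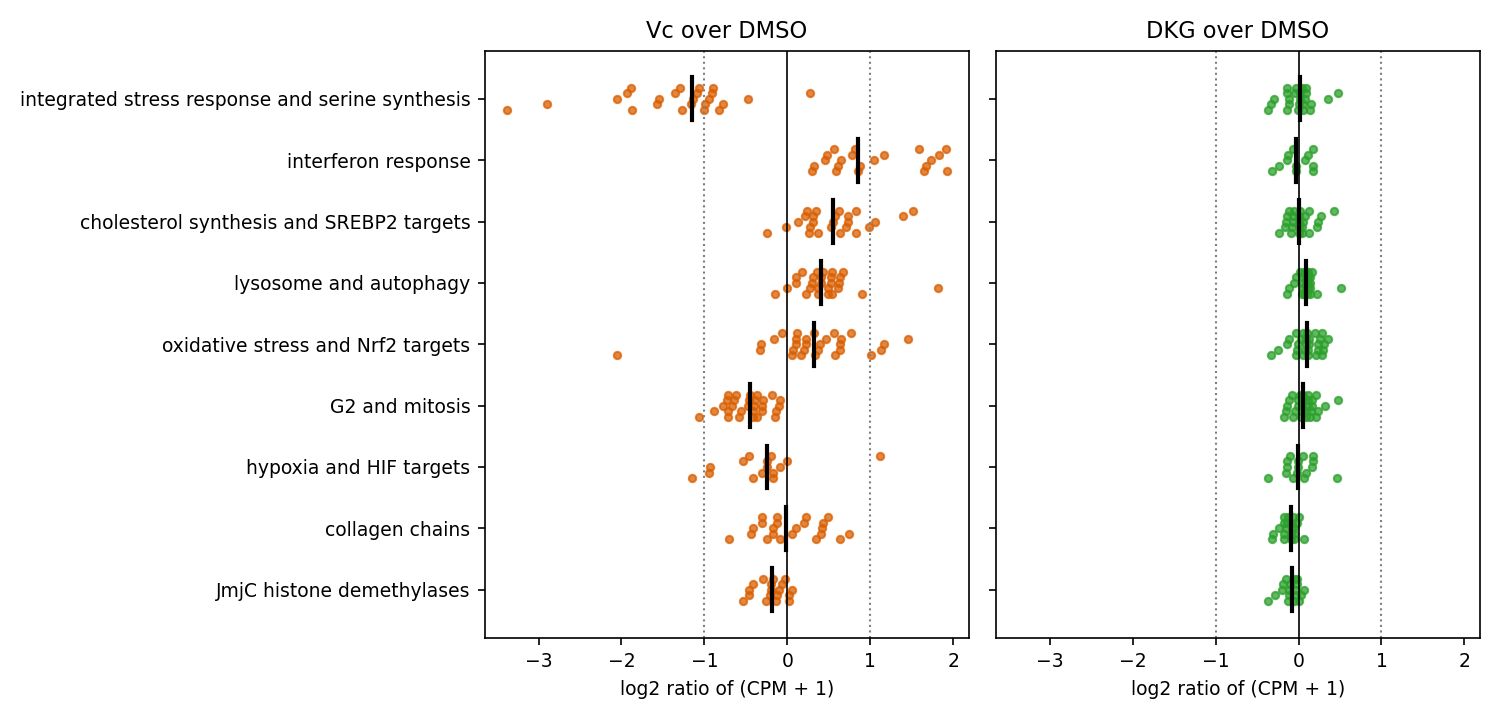
Log2 ratio of (CPM + 1) over DMSO for the members of 9 gene lists with at least 20 CPM in the higher library, for the Vc library (left) and the DKG library (right); bars mark medians and dotted lines 2-fold. The stress response list lies to the left with Vc (median -1.15) and the interferon list to the right (0.85), while every list with DKG has its median between -0.09 and 0.10.

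The DKG library stood close to the DMSO library. Of the 9 genes past 2-fold, Smad6, an inhibitor of BMP signalling, was at 25.8 and 22.5 CPM untreated and at 14.7, 26.1 and 31.1 with DMSO, Vc and DKG. Lars2, the mitochondrial leucyl-tRNA synthetase, was at 87.1 and 124 CPM untreated and at 237, 162 and 70.1 kept. In Smad6 the DMSO library was the lowest of the 5, and in Lars2 DMSO was the highest and DKG the lowest. The other 7 are Tom1, Pakap and 5 predicted models (Gm20503, Gm10221, Gm26735, Gm42418 and Gm5884). Tom1 was at 19.1 and 0 CPM in untreated 0824 and 0826, at 20.3 with DMSO, 0 with Vc and 56.5 with DKG; it thus was at 0 in one untreated library and well above 0 in the other. Expected counts are estimates where gene models share reads; whether these 7 genes do was not tested, and they are treated as uncertain. By lists, 20 of 21 collagen chains were lower with DKG than with DMSO, by a median of -0.09, and 23 of 27 lysosomal and 21 of 29 Nrf2 genes were higher, by medians of 0.09 and 0.10. After the GC step the medians were -0.13, 0.08 and 0.11.

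Cells under reprogramming at day 3, reprogrammed with OKSM (the factors Oct4, Klf4, Sox2 and Myc) and given a Flag virus, gave 2 pairs of libraries with Vc and DMSO that the choice of these genes did not use and that share no library with the MEF. Of the 126 genes higher with Vc in MEF, 59 reached 20 CPM there, and 27 of those were higher in both pairs (45.8%, against 27.7% of all genes at the level in MEF). Of the 115 lower genes, 97 reached it and 24 were lower in both (24.7%, against 31.9%). Mdk was 2.71 and 1.98 higher on the log2 scale in the pairs 0824 and 0826, and Sncg, a synuclein, was 1.23 and 0.80 higher. Both genes were higher with Vc in all 3 pairs but stayed below 20 CPM in the reprogramming cells. Mdk was there at 13.05 and 5.83 CPM with Vc against 1.15 and 0.734 with DMSO, and Sncg at 4.03 and 10.6 against 1.15 and 5.68. Of the other named genes with the highest ratios in MEF, Xdh, Ly6c1 and Serping1 were higher in both pairs. Serping1 differed little in 0824, at 29.6 CPM with Vc against 28.8 with DMSO. Aldh1l1, Aqp1 and Agtr2 were lower in 0824 and higher in 0826. Xdh, Aldh1l1 and Agtr2 were at 2.08 CPM or less in each of these libraries, so their directions rest on few reads. The sterol list was higher in both pairs in 18 of 24 genes, with medians of 0.13 and 0.17. The stress response list was not lower there: its medians were 0.08 and 0.09 over 21 genes, with 4 lower in both pairs, and Slc7a5 was at 170 CPM with Vc against 144 with DMSO in 0824 and at 169 against 151 in 0826. Trib3 was at 2.69 CPM or less in all 4 of those libraries, far below its level in untreated MEF.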

How the data were processed

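Per the labels' protocols, Trizol was used for extraction and a TruSeq RNA kit for library preparation. The authors deposited, for each library, RSEM expected counts per gene with TPM and FPKM; the submitters' processing notes name Bowtie, RSEM and mm10, with no version. Expected counts were rounded and scaled by TMM; TPM served only as an alternative and FPKM was not used. Of 29267 gene identifiers, 28756 matched a gene of the GENCODE mouse annotation on mm10. Genes passing edgeR's filterByExpr were tested with edgeR 4.0.16 (quasi-likelihood, two-sided, Benjamini-Hochberg adjustment, R 4.3.3), with 3 kept against 2 untreated libraries; SE is the log2 difference over the square root of F. Alternatives used limma 3.58.1 and DESeq2 1.42.0. The test was checked on simulated data.

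Single libraries were compared with 1 CPM added and no test. Poisson intervals are 95%. Named were called, non-overlapping genes of at least 20 CPM (up to 12 per direction), up to 4 called members per list and direction, 11 fixed genes, and the 8 highest and lowest single-library ratios; other list members were picked after their values were seen. The members and lists were chosen with earlier results of these data known. Some genes are not reported here.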

Additional observations from a re-analysis of the deposited data

Results flagged for a closer look

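The median log2 ratio of Vc over DMSO was compared in gene lists with at least 15 members measured in both cell states. In 10 lists it was at least 0.1 in size in MEF and of opposite sign in both reprogramming pairs. Those were the day 3 pairs (0824 and 0826) of cells under reprogramming with a Flag virus. The difference was not tested, since MEF have 1 library of each kind. Integrated stress response genes had a median of -1.15 in MEF and 0.08 and 0.09 in the reprogramming pairs. G2 and mitosis genes had -0.45 in MEF against 0.28 and 0.09, replication genes -0.26 against 0.31 and 0.20, and ribosome biogenesis genes -0.26 against 0.16 and 0.09. By these medians, the lists of division and growth were lower with Vc in the 1 MEF pair and higher in the reprogramming pairs. The untreated MEF libraries, which share their label, had medians of 0.37, 0.23 and 0.30 on the mitosis, replication and ribosome lists (0826 over 0824). The GC trend was not taken out of the reprogramming pairs. Lysosomal genes had 0.41 in MEF against -0.19 and -0.07, fibroblast identity genes 0.35 against -0.23 and -0.15, and imprinted genes 0.20 against -0.27 and -0.28. Medians were smaller in the remaining lists: collagen modification genes had 0.11 in MEF against -0.31 and -0.11, Tet enzymes and DNA methylation genes -0.18 against 0.04 and 0.11, and glycolysis genes -0.15 against 0.01 and 0.13. With the GC trend taken out of the MEF pair, the collagen modification median was -0.02, no longer opposite in sign to the reprogramming pairs.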

How the results depend on the processing

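Against 7 genes higher and 13 lower in kept MEF, the same test gave 3 and 4 with total counts in place of TMM, 79 and 184 with no filter on low counts, 0 and 0 with DMSO as the only kept library (1093 genes at an unadjusted p under 0.05), 0 and 1 with all 31 libraries in the fit (688), and 12 and 20 with an offset for GC content, an alternative chosen after seeing the data. DESeq2 gave 102 and 170, and limma on log2(TPM + 1) gave 0 and 0 (1305 at an unadjusted p under 0.05). Leaving out 1 library gave between 0 and 80 higher and between 0 and 112 lower: without DMSO or without DKG no gene was called, without Vc 80 and 107 were, without untreated 0826 6 and 112, and without untreated 0824 1 and 2. Where an arm was left with 1 library, that library was assumed to vary like the other arm. RLE scaling gave the same counts, and a filter of 10 CPM gave 8 and 14. For single libraries, Vc over DMSO went from 126 higher and 115 lower to 498 and 604 at 1.5-fold, and to 65 and 56 at 50 CPM or more. DKG over DMSO went from 3 and 6 to 18 and 21 with the deposited TPM, 14 and 20 at 1.5-fold, and 1 and 2 at 50 CPM or more, with 1 higher when 5 CPM were added. The causes were not tested. Of 418 values for 30 named genes, 272 kept their direction and side of the threshold, 139 lost the call, 7 gained it and none reversed. Of 280 list counts, 193 stayed within 1.5 times the main count. No paired analysis was possible because the kept libraries carry no replicate number to match with untreated 0824 and 0826. At these depths a count of 0 allows up to 3 counts, or at most 0.719 CPM.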
